A study of Mus musculus with 10 samples.

Results

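The genes described here are the 8 annotated neighbours of Adipoq on mouse chromosome 16 that were picked out as possible passengers of the Adipoq-Cre transgene: Ahsg, Fetub, Kng2, Kng1, Eif4a2, Rfc4, 6330408M09Rik and St6gal1. They are 8 of the 56748 genes in the count table, and each was found by its gene symbol. They were selected on their position beside Adipoq and on the measured log2 fold changes of KO against control, so their differences between the groups are given as a description and carry no test. RNA was sequenced from 10 cultures of primary adipocytes, differentiated for 6 to 8 days from the stromal vascular fraction (SVF, the nonadipocyte cells) of inguinal fat of male mice aged 6 to 8 weeks. The 5 control cultures had the genotype Fam20c-flox, and the 5 Ad-Fam20c–KO cultures (KO) had the genotype Fam20c-flox/Adipoq-Cre. Both groups thus carried the floxed allele, from a line backcrossed for at least 5 generations to C57BL/6J, and both were exposed to isobutylmethylxanthine, dexamethasone, insulin and rosiglitazone. Every KO culture and no control culture carried the Cre transgene. Loss of Fam20c, the Cre protein and any other gene that the transgene holds therefore cannot be told apart in this design. The labels do not say whether the cultures of a group came from separate mice, so p-values measure only the spread between these cultures.

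Adipoq encodes adiponectin, a hormone made by fat cells, and its promoter is widely used to express Cre recombinase in adipocytes. The common Adipoq-Cre strain is built on a bacterial artificial chromosome, a large piece of mouse genomic DNA with Cre placed at Adipoq, and such a piece can hold further genes beside the one it is named for. Which genes it holds in this strain is not given in the sources used here, and counts per gene do not separate a transcript of the chromosome 16 copy from one of a transgene copy. The count table has 0 entries named Cre. Among the neighbours, Ahsg and Fetub encode the fetuins and Kng1 and Kng2 the kininogens, all plasma proteins of the cystatin superfamily known mainly from liver. Eif4a2 encodes an RNA helicase that helps load ribosomes onto mRNA, Rfc4 a subunit of the clamp loader of DNA replication, and St6gal1 an enzyme that adds sialic acid to glycoproteins. 6330408M09Rik is annotated as a noncoding RNA that shares a bidirectional promoter.

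On GRCm38 with GENCODE M21, Adipoq lies at chr16:23146536-23158028 on the plus strand. Ahsg (chr16:22891277-22899449, plus) comes first and ends 247.1 kb before the Adipoq start, followed by Fetub (chr16:22918334-22939778, plus). Kng2 (chr16:22985854-23029482, minus) ends 117.1 kb before Adipoq, and Kng1 (chr16:23057865-23082078, plus) lies between it and Eif4a2 (chr16:23107444-23114136, plus). Rfc4 (chr16:23113943-23127737, minus) and 6330408M09Rik (chr16:23127793-23128922, plus) are the nearest of the 8 genes, 18.8 kb and 17.6 kb before the Adipoq start. St6gal1 (chr16:23224740-23360350, plus) is the only one of the 8 on the other side, and its start lies 78.2 kb past that of Adipoq. From the start of Ahsg to the end of St6gal1 the group spans 469.1 kb. Eif4a2 and Rfc4 overlap by 194 bases on opposite strands at their 3′ ends. Rfc4 and 6330408M09Rik point away from each other with starts 56 bases apart.

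Promoter windows of 300 bases were available from RefSeq (GRCm38.p6) for 6 of the 8 genes, Kng1 and 6330408M09Rik not among them. The windows below are those of the genes with the highest counts before Adipoq and of Adipoq itself, shown because they differ in base composition while the genes lie within 1 neighbourhood. They are written 5′ to 3′ on the strand of the gene, and capitals mark matches on either strand to CCAAT or GGGCGG, the only 2 of the 4 searched motifs that matched in them; no matches overlap. The Rfc4 window also holds the annotated start of 6330408M09Rik, at position 188 counted from its first printed base.
Kng2, chr16:23029052-23029351, minus strand: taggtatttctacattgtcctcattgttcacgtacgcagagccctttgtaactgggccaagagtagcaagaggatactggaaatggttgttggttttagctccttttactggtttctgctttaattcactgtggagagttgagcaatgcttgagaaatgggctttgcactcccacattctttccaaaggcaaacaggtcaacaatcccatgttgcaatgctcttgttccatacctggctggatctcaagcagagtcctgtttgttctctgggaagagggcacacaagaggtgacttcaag
Eif4a2, chr16:23107218-23107517, plus strand: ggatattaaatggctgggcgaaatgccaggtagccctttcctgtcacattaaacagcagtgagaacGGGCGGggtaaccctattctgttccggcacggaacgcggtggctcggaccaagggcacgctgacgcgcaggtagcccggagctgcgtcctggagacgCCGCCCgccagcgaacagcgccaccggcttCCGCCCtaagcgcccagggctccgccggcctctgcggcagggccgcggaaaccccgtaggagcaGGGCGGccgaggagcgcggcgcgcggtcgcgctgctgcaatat
Rfc4, chr16:23127681-23127980, minus strand: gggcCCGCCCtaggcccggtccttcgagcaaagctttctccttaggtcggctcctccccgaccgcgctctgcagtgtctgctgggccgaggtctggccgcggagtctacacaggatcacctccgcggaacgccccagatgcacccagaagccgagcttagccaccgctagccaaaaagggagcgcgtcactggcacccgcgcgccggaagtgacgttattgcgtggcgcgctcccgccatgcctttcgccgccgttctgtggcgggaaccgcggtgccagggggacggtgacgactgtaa
Adipoq, chr16:23146286-23146585, plus strand: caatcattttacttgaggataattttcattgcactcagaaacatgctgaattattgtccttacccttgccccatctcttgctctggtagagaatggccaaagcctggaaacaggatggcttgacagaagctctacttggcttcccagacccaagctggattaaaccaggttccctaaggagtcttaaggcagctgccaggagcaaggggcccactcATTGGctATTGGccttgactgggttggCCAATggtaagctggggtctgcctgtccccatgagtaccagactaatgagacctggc

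The Eif4a2 window held 36 CpG dinucleotides at a GC content of 67.7%, and the Rfc4 window held 34 at 67.3%, against a median of 7 CpG and 52.7% GC over all windows. The Kng2 window held 2 CpG at 45.3% GC, and the Adipoq window held 0 CpG. GGGCGG, the core of a GC box, occurred 4 times in the Eif4a2 window and 1 time in that of Rfc4, and 35.7% of the 32851 windows hold it. CCAAT occurred 3 times in the Adipoq window and is found in 37.4% of all windows. TATAAA (13.6% of windows) and the direct repeat of AGGTCA with 1 base between its copies (0.0396%), a sequence that PPARγ binds, matched none of the 4 windows. The CpG-rich windows of Eif4a2 and Rfc4 thus differed in composition from the CpG-poor windows of Kng2 and Adipoq, and these matches are a description of letters only.

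Depth was similar in both groups, with totals of 18949106 to 26237825 counts in control and 19883101 to 23291792 in KO libraries. Of 14270 genes tested, 265 were lower and 44 higher in KO by edgeR's quasi-likelihood test at an adjusted p limit of 0.05 (Benjamini-Hochberg), which is 1.86% and 0.308% of the genes. Fam20c, the targeted kinase gene, checks the labels: control libraries had 8.86, 10.3, 11.9, 9.09 and 11.2 CPM (the count scaled to library size, TMM-normalized), and KO libraries 6.65, 7.29, 7.11, 7.70 and 7.74. No KO library reached the lowest control library, and Fam20c fell by 0.49 on the log2 scale (SE 0.0929, adjusted p = 0.0137 by the same test; 2-sided exact permutation p = 0.00794, the smallest that 252 assignments can give). Its counts cover the whole gene, and not only the floxed part. Control 4 and KO 1 stood apart from the other 8 libraries on the first principal component of log2 CPM (23.5% of the variance), at 21.74 and 24.23 against -14.81 to 8.589. For Eif4a2, Kng1 and Kng2, log2 fold changes without Control 4 and without KO 1, each left out alone, are therefore given too.

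Adipoq itself was among the most abundant transcripts and differed little. Control libraries had 1740.1, 1737.5, 1810.3, 1645.7 and 1859.3 CPM, and KO libraries 1771.3, 1799.1, 1805.8, 1873.3 and 1852.3 CPM. The 2 ranges overlapped, at means of 1758.6 ± 81.2 and 1820.4 ± 41.5 (SD, n = 5). The difference was 0.05 on the log2 scale (SE 0.0428), with an adjusted p = 0.743 in edgeR's quasi-likelihood test (Benjamini-Hochberg) and a 2-sided exact permutation p = 0.167.

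All 8 neighbours passed the filter on low counts, 7 of 8 had a higher mean CPM in KO, and 2 of 8 (25.0%), Eif4a2 and Rfc4, were called higher by the fit over all genes, beside 0.308% of all genes tested. DESeq2 and limma voom each called 4 higher, with Kng1 and Kng2 in addition, beside 125 and 111 higher calls among all 14270 genes. Because the 8 were picked with this contrast known, nothing is read from these shares. Their median log2 fold change was 0.431, and that of all 14270 genes -0.001.

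**Figure D1:**
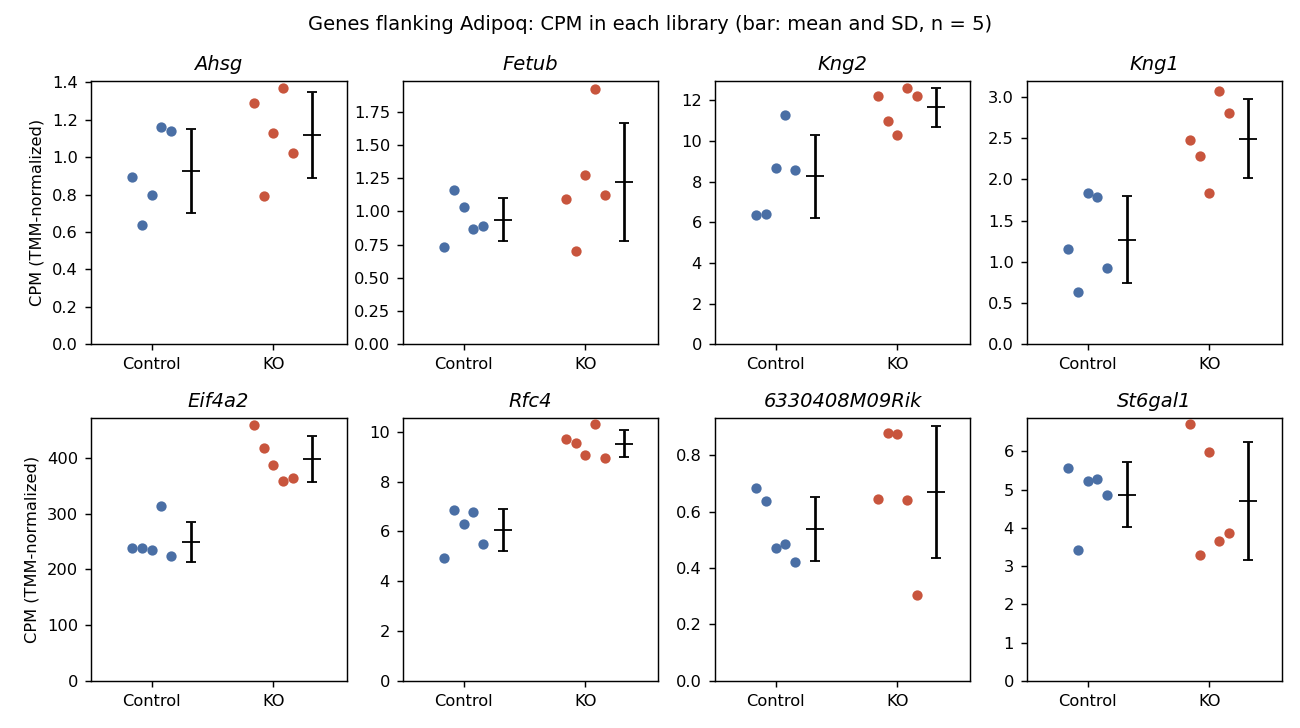
CPM (TMM-normalized, vertical axes from 0) of the 8 genes in each of the 5 control (blue) and 5 KO (red) libraries, with the mean and SD beside the points. Eif4a2 and Rfc4 are the 2 genes whose KO libraries all lie above every control library, while Ahsg, Fetub, 6330408M09Rik and St6gal1 overlap widely.

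The clearest separation was at the pair of overlapping genes nearest to Adipoq. Eif4a2 stood at 239.1, 237.8, 234.2, 313.6 and 224.2 CPM in Control 1 to Control 5, and at 459.9, 417.7, 388.2, 358.8 and 364.5 CPM in KO 1 to KO 5. All 5 KO libraries lay above the highest control library, Control 4. The means were 249.8 ± 36.1 and 397.8 ± 41.7 CPM (SD, n = 5), a ratio of 1.59 and a log2 fold change of 0.67 (SE 0.0935), which ranked 29 among the 14270 genes from the highest down. Counts of 4560 to 9513 per library stand behind these values, and several small nucleolar RNAs lie within the gene on the same strand. Leaving out 1 library at a time gave 0.62 to 0.77, the lowest without KO 1 and the highest without Control 4. With Control 4 and KO 1 both left out it was 0.71.

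Rfc4 had a much lower count and nearly the same ratio. Control libraries had 4.93, 6.86, 6.30, 6.77 and 5.50 CPM, and KO libraries 9.72, 9.57, 9.08, 10.3 and 8.96 CPM. The groups did not overlap. Means were 6.07 ± 0.837 and 9.53 ± 0.542 CPM (SD, n = 5), with a ratio of 1.57 and a log2 fold change of 0.65 (SE 0.0968). Each library held 94 to 225 counts, and leaving out 1 library at a time gave 0.58 to 0.70. In all, 1.31% of the genes tested had every KO library above every control library.

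Reads of Eif4a2 and Rfc4 may not be fully separate. Of all runs of 50 bases in the longest Rfc4 transcript, 11.1% also occur in transcripts of Eif4a2, and whether the counting used strand is not stated. For Eif4a2, 12.7% of such runs occur in another gene, most of them (8.61%) in the pseudogene Gm2999. How far shared reads entered the Rfc4 counts was not tested.

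6330408M09Rik, the noncoding RNA on the other side of the Rfc4 start, was barely detected. Control libraries had 13, 17, 10, 10 and 10 counts and KO libraries 13, 20, 20, 14 and 6. KO 5 was the lowest of all 10 libraries, and KO 2 and KO 3 were the highest, so the ranges overlapped. The means of 0.539 ± 0.113 and 0.669 ± 0.234 CPM (SD, n = 5) gave a log2 fold change of 0.33 (SE 0.274), little above its own standard error. Both 0 and the value of Rfc4 lie within 2 standard errors of it, so neither could be told from it at this depth. None of its runs of 50 bases occur in transcripts of another gene.

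Among the genes before Adipoq, the kininogens came next in distance after Eif4a2. Kininogens carry bradykinin, a vasoactive peptide released by kallikreins. Kng1 had 1.15, 0.637, 1.83, 1.79 and 0.930 CPM in control libraries and 2.48, 2.28, 1.83, 3.07 and 2.80 CPM in KO libraries. All KO libraries but KO 3 lay above every control library, and KO 3 stood level with Control 3. Its means of 1.27 ± 0.528 and 2.49 ± 0.476 CPM (SD, n = 5) gave the highest ratio of the 8 genes, 1.96, and a log2 fold change of 0.99 (SE 0.259) that ranked 11 among all genes tested. The value rests on 17 to 67 counts per library. It ranged from 0.80 to 1.17 with 1 library left out, and was 1.15 without Control 4 and 1.0 without KO 1.

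Kng2, annotated on the opposite strand, had more counts than Kng1 in every library. It had 121, 171, 184, 233 and 203 counts in the control cultures, or 6.35, 6.41, 8.65, 11.3 and 8.58 CPM. The KO cultures had 245, 251, 235, 274 and 239 counts, which are 10.3 to 12.6 CPM. Control 4 lay within the KO range, and 3 KO libraries exceeded every control library. The means were 8.25 ± 2.02 and 11.6 ± 0.957 CPM (SD, n = 5), a ratio of 1.41 and a log2 fold change of 0.50 (SE 0.14). Leaving out 1 library at a time gave log2 fold changes of 0.41 to 0.63, the highest without Control 4. Without KO 1 it was 0.48. Kng1 and Kng2 are close paralogs: 18.0% of the runs of 50 bases of Kng1 also occur in Kng2, and 18.2% of those of Kng2 in Kng1, so the split of counts between them is uncertain. Within groups, after removal of each group's mean, their log2 CPM moved together more than any other pair of the 8 genes, which is given as a description over 10 libraries (Pearson r 0.74).

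The fetuins are the 2 genes of the group farthest from Adipoq on that side. Fetuin A, the product of Ahsg, binds calcium phosphate in serum, and fetuin B, the product of Fetub, inhibits an astacin protease. Ahsg had 0.892, 0.637, 0.799, 1.16 and 1.14 CPM in control and 1.29, 0.790, 1.13, 1.37 and 1.02 CPM in KO libraries. Fetub had 0.734, 1.16, 1.03, 0.870 and 0.888 CPM in control and 1.09, 0.703, 1.27, 1.92 and 1.12 CPM in KO libraries. Both genes overlapped between the groups, and KO 4 was the highest library for each. The log2 fold changes were 0.28 (SE 0.216) for Ahsg and 0.37 (SE 0.247) for Fetub, from 17 to 30 and 14 to 42 counts per library. The differences in mean CPM, 0.195 and 0.283, were smaller than the SD of the KO libraries, 0.231 and 0.445. Ahsg overlaps the antisense gene Gm30505 by 3110 bases, but 0.976% of its runs of 50 bases occur in transcripts of that gene, which had 0 counts in every library.

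St6gal1, the only gene of the group past Adipoq, had the lowest log2 fold change of the 8. Control libraries had 5.56, 3.41, 5.22, 5.27 and 4.86 CPM, and KO libraries 6.70, 3.29, 5.98, 3.66 and 3.87 CPM. KO 1 and KO 3 were the highest libraries, and the other KO libraries stood at or below 3.87 CPM, so the KO spread enclosed the control spread. The means of 4.86 ± 0.849 and 4.70 ± 1.53 CPM (SD, n = 5) differed by -0.04 on the log2 scale (SE 0.205), and the value lay between -0.20 and 0.07 with 1 library left out. The gene ranked 9245 of 14270 by log2 fold change.

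**Figure D2:**
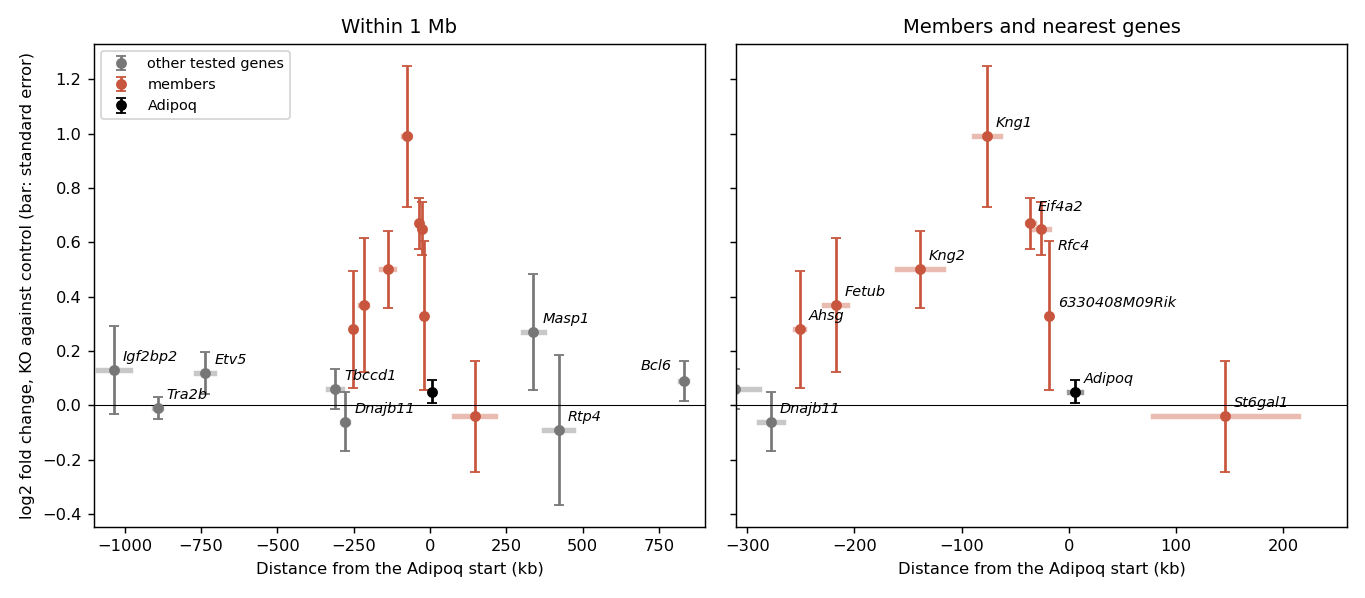
Log2 fold change of KO against control (vertical axis, bars: standard error) against distance from the Adipoq start in kb (horizontal axis, points at gene midpoints, pale bars spanning each gene), for all tested genes within 1 Mb (left) and for the nearest genes (right). The 7 genes of the group before Adipoq lie between 0.28 and 0.99, St6gal1 and Adipoq lie at -0.04 and 0.05, and the other genes tested lie between -0.09 and 0.27.

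Distance to Adipoq and transcript level were set beside these differences. A further 53 genes have any part within 1 Mb of the Adipoq start, and 8 of them passed the filter on low counts. Of these 8, 0 passed edgeR's quasi-likelihood test (Benjamini-Hochberg), 0 had an unadjusted p under 0.05, and DESeq2 and limma voom also called 0. At the 2.17% called over all genes in either direction, 0 of 8 does not set them apart. Their median log2 fold change was 0.075, beside -0.001 for all genes. The 2 nearest on the side of Ahsg were Dnajb11, a chaperone of the endoplasmic reticulum, and Tbccd1, which takes part in centrosome positioning. Dnajb11, 266.9 kb away, had 201.0 ± 26.3 CPM in control and 193.2 ± 26.9 in KO libraries (log2 fold change -0.06, SE 0.108, adjusted p = 0.918). Tbccd1, 288.9 kb away, had 25.9 ± 2.31 and 26.9 ± 2.00 CPM (0.06, SE 0.072, adjusted p = 0.864).

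On the other side, past St6gal1, the nearest tested gene was Masp1, a serine protease of the lectin pathway of complement. It lies 302.9 kb from the Adipoq start and had 5.03 ± 1.47 CPM in control and 6.04 ± 1.68 in KO libraries (log2 fold change 0.27, SE 0.214, adjusted p = 0.716). Rtp4, an interferon-induced gene 373.8 kb away, had 33.0 ± 15.1 and 31.1 ± 10.2 CPM (-0.09, SE 0.276, adjusted p = 0.957). Farther out on that side, 818.5 kb away, Bcl6 (a transcriptional repressor) differed by 0.09 (SE 0.0726, adjusted p = 0.703, edgeR). Etv5 (an ETS transcription factor) lies 706.8 kb away on the side of Ahsg and differed by 0.12 (SE 0.0778, adjusted p = 0.6, edgeR). For Masp1, a log2 fold change as large as that of Kng2 lay within 2 standard errors of its value and was not detectable at this spread.

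Chromosome 16 beyond this window gave few calls. From 1 to 5 Mb before Adipoq, 1 of 49 tested genes passed, Cldn5, an endothelial tight junction gene that was lower in KO. From 1 to 5 Mb after Adipoq, 0 of 8 tested genes passed with edgeR, DESeq2 or limma voom, and 1 had an unadjusted p under 0.05. On the rest of the chromosome 11 of 353 tested genes (3.12%) passed, 10 lower and 1 higher, beside 2.17% of all genes tested in either direction. The higher one was Pkp2, a desmosome gene.

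Between Kng2 and Rfc4 lie 9 other annotated genes, and 0 of them had enough counts for the test. Of these, 6 had 0 counts in all 10 libraries. The pseudogene Gm6493, which overlaps Kng2 on the same strand, had 31 counts summed over control and 25 over KO libraries, a depth-corrected ratio of 0.837 (95% exact interval 0.474 to 1.46, counting error only). Gm8130 had 11 and 19 counts, a ratio of 1.79 (0.810 to 4.17). Outside that interval, between Fetub and Kng2, lies Hrg (chr16:22951072-22961656, plus strand), the histidine-rich glycoprotein gene. It belongs to the same superfamily as the fetuins and kininogens and had 0 counts in every library, which allows up to 0.0137 CPM (3 counts over all libraries, counting error only). Hrg was thus not detected at a depth at which both kininogens and both fetuins were.

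One noncoding gene outside the group stood out, and it was named after its values had been seen. B630019A10Rik (chr16:23175280-23224446, plus strand) is annotated as antisense RNA and starts 28.7 kb past the Adipoq start, between Adipoq and St6gal1. Control libraries had 2, 2, 0, 2 and 1 counts, and KO libraries 9, 13, 5, 9 and 17 counts. The groups did not overlap. The means were 0.0638 ± 0.0431 and 0.503 ± 0.239 CPM (SD, n = 5), and the summed counts of 7 and 53 gave a depth-corrected ratio of 7.85 (95% exact interval 3.56 to 20.5, counting error only). It fell under the filter on low counts. When the filter was removed, its log2 fold change was 2.87 (SE 0.532) with an adjusted p = 0.00328 over 27306 genes by edgeR's quasi-likelihood test (Benjamini-Hochberg). Among the 17 untested neighbours with at least 1 count in both groups it was the 1 without overlap, and over all 9153 such genes 0.164% had every KO library above every control library. BC106179, which overlaps it and St6gal1 on the opposite strand, had 7 and 12 counts, a ratio of 1.78 (0.646 to 5.33), and reads in the overlap cannot be assigned to a strand here.

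**Figure D3:**
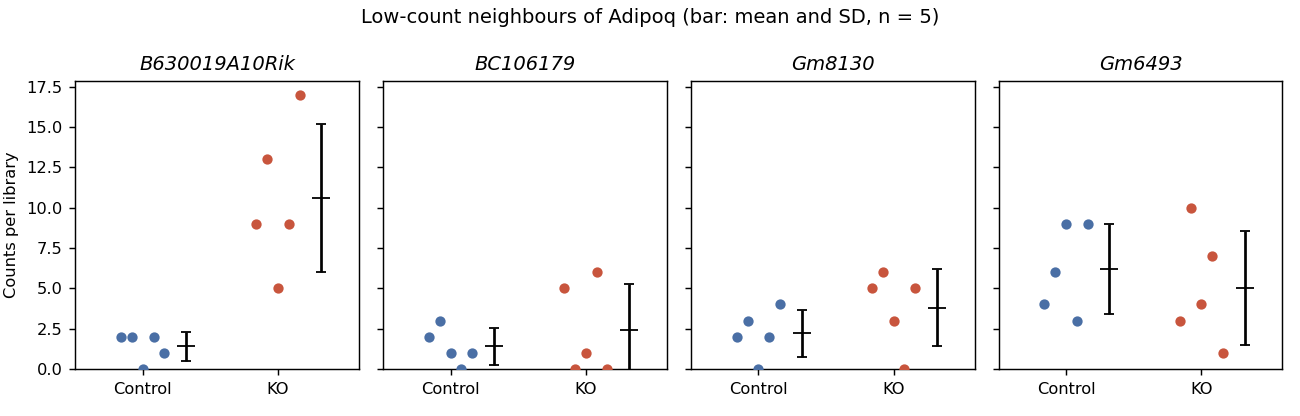
Counts per library (vertical axis, shared and linear from 0) of 4 low-count neighbours of Adipoq in 5 control (blue) and 5 KO (red) libraries, with mean and SD. B630019A10Rik is at 0 to 2 counts in control and 5 to 17 in KO libraries, while the other 3 genes overlap between the groups.

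From the highest to the lowest of the 8 genes, transcript levels differed by more than any of their changes between the groups. Per kilobase of merged exons, Adipoq stood at 1273.4 ± 58.8 CPM in control libraries (SD, n = 5) and Eif4a2 at 46.8 ± 6.77 CPM. Rfc4 (3.96 ± 0.546 CPM per kb) and Kng2 (3.02 ± 0.740) came next and overlapped each other. St6gal1 followed at 0.990 ± 0.173 CPM per kb, below every Kng2 value and above every Fetub value. The lowest genes, Fetub (0.478 CPM per kb), 6330408M09Rik (0.477), Ahsg (0.422) and Kng1 (0.390), could not be ordered, since each overlapped its neighbour in the order. In KO libraries Kng1 came directly after St6gal1 in that order, at 0.767 ± 0.146 CPM per kb, and still overlapped both of its neighbours there. Eif4a2 and Rfc4 stood at 74.5 ± 7.82 and 6.21 ± 0.354 CPM per kb in KO.

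**Figure D4:**
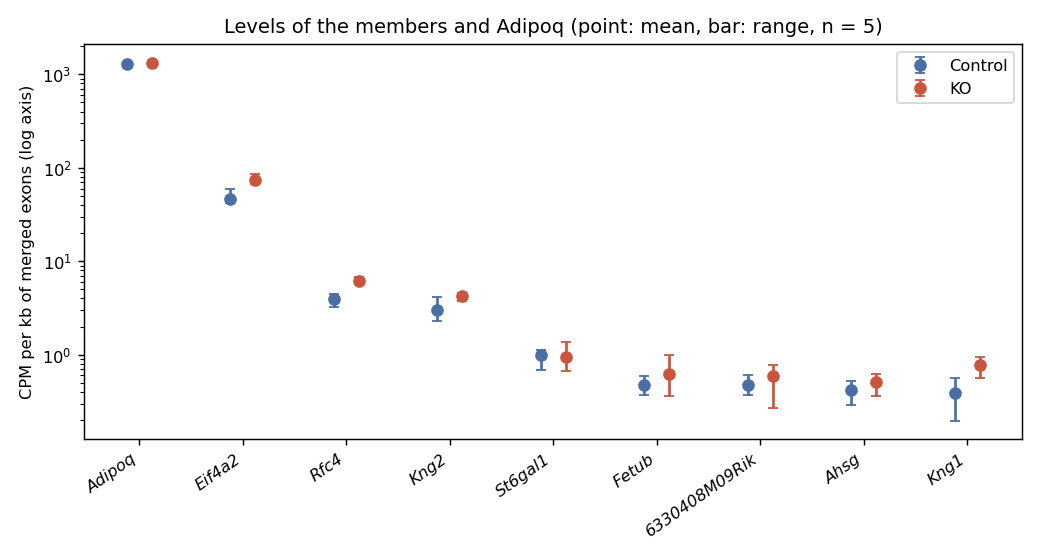
CPM per kb of merged exons (vertical log axis) of Adipoq and the 8 genes, ordered by the control mean, with points for the mean and bars for the range of 5 libraries per group. Eif4a2, Rfc4 and Kng2 follow Adipoq, and the lowest 4 genes have overlapping ranges in control libraries.

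Marker genes placed these levels in the cultures. All 15 adipocyte markers were tested and summed to 42321.2 to 43612.5 CPM in control and 43831.5 to 45941.8 CPM in KO libraries. Every KO sum thus lay above every control sum. Of the 15 markers, 10 had a positive and 5 a negative log2 fold change. Of these 15, edgeR called 0 (5 with an unadjusted p under 0.05, 2 called by DESeq2 and 1 by limma voom). The most abundant, Fabp4 and Lpl, had 20805.4 and 8629.9 CPM in control and 22552.2 and 8479.1 CPM in KO libraries. Of 24 hepatocyte markers in the table, Ahsg included, 8 were tested and 9 were at 0 in every library, among them Ttr, Apob, Fgb, F2, Hnf4a and Cyp3a11. In that list Fga, which encodes the α chain of fibrinogen, rose from 4.71 ± 0.646 to 7.73 ± 1.21 CPM (log2 fold change 0.72, adjusted p = 0.00995), and Trf, the transferrin gene, fell by 0.41 on the log2 scale (adjusted p = 0.0146), both by edgeR's quasi-likelihood test (Benjamini-Hochberg). The summed level of the list was 506.7 to 639.6 CPM in control and 423.8 to 522.7 CPM in KO libraries.

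Among markers of other cells, only the endothelial ones had sums that separated the groups. Of 20 endothelial markers 17 were called lower in KO by edgeR, and all 20 had a negative log2 fold change. Their summed level was 233.5 to 276.5 CPM in control and 107.0 to 150.3 CPM in KO libraries, with none at 0. The 5 with the lowest p, Cdh5, Robo4, Egfl7, Emcn and Tie1, fell by 1.24 to 1.65 on the log2 scale. Of 14 progenitor and fibroblast markers 5 were called lower, Lum, Cd34, Pdgfra, Col3a1 and Col1a1, and 13 had a negative log2 fold change. Their sums of 5975.8 to 7489.6 CPM in control and 4977.3 to 6112.9 CPM in KO libraries overlapped. Of 15 macrophage and leukocyte markers 1, Cd163, was called lower, and 9 had a negative log2 fold change. Their sums of 1607.4 to 2449.0 CPM in control and 1408.5 to 2314.6 CPM in KO libraries overlapped. In bulk RNA, fewer cells of a type and less RNA per cell cannot be told apart. The part that these cells have in the values of the 8 genes was not tested beyond a fit with the endothelial markers as a covariate.

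Genes that act with the 8 were taken list by list, and shares called are to be read against the 2.17% of all genes tested that passed in either direction, at which short lists give few or no calls. Of 20 genes of the kinin and contact system 10 were tested and 0 were called by edgeR, DESeq2 or limma voom (2 with an unadjusted p under 0.05 in edgeR), at a median log2 fold change of -0.022. The most abundant were Serping1, the C1 inhibitor, with 787.1 ± 83.0 CPM in control and 732.6 ± 79.7 in KO libraries, and Ace, the kininase that degrades bradykinin, with 630.1 ± 47.4 and 686.2 ± 49.8 CPM. Their adjusted p-values were 0.724 and 0.474 by edgeR's quasi-likelihood test. Of 14 further cystatin and mineral genes 7 were tested, 0 were called by any of the 3 tools and 0 had an unadjusted p under 0.05 in edgeR. Their median was 0.064, and the leading genes, Cst3 (cystatin C, 320.5 and 335.1 CPM) and Spp1 (osteopontin, 104.5 and 116.8 CPM), had adjusted p-values of 0.762 and 0.802.

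For Eif4a2, 15 of 16 partners of the eIF4F complex were tested and 0 were called by any of the 3 tools, with 2 at an unadjusted p under 0.05 in edgeR. Their log2 fold changes lay between -0.16 and 0.12 around a median of 0.033. Eif4g2 and Eif4g1, the scaffolds on which the helicase sits, had 1241.1 ± 42.2 and 692.9 ± 28.8 CPM in control and 1275.6 ± 58.2 and 700.6 ± 41.9 in KO libraries. For Rfc4, 18 of 20 clamp loader and sliding clamp genes were tested, 0 were called by any of the 3 tools and 3 had an unadjusted p under 0.05 in edgeR, at a median of -0.03. Rfc1, the large subunit of the same complex, had 70.9 ± 4.11 and 74.3 ± 5.18 CPM (log2 fold change 0.07, adjusted p = 0.731), and Pcna, the clamp itself, had 37.3 and 38.7 CPM. St6gal1 transfers sialic acid in one linkage, and other enzymes of the family do so in others. For St6gal1, 20 of 27 sialylation genes were tested and 1 was called: St8sia4, a polysialyltransferase, fell by 1.15 on the log2 scale (SE 0.14, adjusted p = 0.000733 by edgeR's quasi-likelihood test (Benjamini-Hochberg)), from 4.85 ± 0.410 to 2.17 ± 0.476 CPM. DESeq2 called 2 and limma voom 4 genes of that list.

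The genes most alike in pattern were taken as those with the highest Pearson correlation of log2 CPM over the 10 libraries, as a description. The measure runs over both groups, so any gene that differs between them in the same direction scores high. Eif4a2 was closest to Irx2 (r 0.974), 4931408D14Rik (0.973) and Hspb7 (0.965), and Rfc4 to Galnt2 (0.944), Irx2 (0.943) and Lyrm9 (0.932). Kng2 was closest to Ucp1 (0.965), the uncoupling protein of thermogenic adipocytes, then to F3 (0.940) and Hmga2 (0.939), and Kng1 to Nmral1 (0.921), Hspb11 (0.917) and Mrps30 (0.910). Those with a position in GENCODE M21 lie more than 1 Mb from Adipoq or on other chromosomes, and 4931408D14Rik has no position there. For St6gal1 they were Gm36738 (0.945), Adam8 (0.925) and Hpse (0.923), for Ahsg Vdac2 (0.897), Hmox2 (0.887) and Med26 (0.885), and for Fetub Emd (0.919), Agk (0.913) and Mrpl17 (0.912). 6330408M09Rik was too low for this comparison. Eif4a2 and Rfc4 had Irx2 in common, and the kininogens shared none of the 3 with each other.

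**Figure D5:**
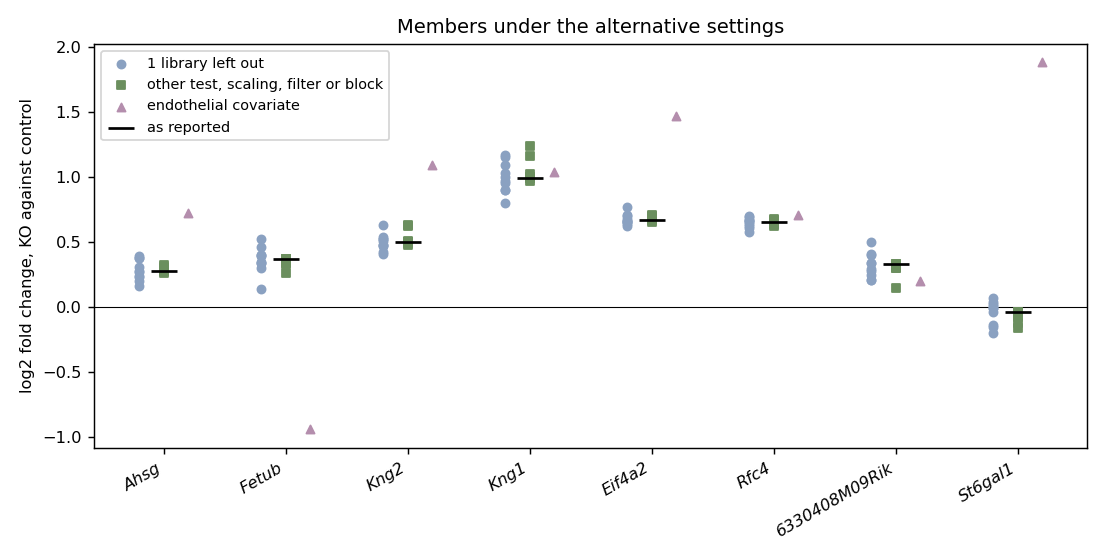
Log2 fold change of KO against control (vertical axis) of the 8 genes with 1 library left out (blue circles), under another test, scaling, filter or block (green squares), with an endothelial covariate (violet triangles) and as reported (black bar). Kng1, Eif4a2 and Rfc4 stay above 0.5 under all of them, and St6gal1 lies on both sides of 0.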

How the data were processed

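For the deposited counts, the authors mapped paired reads of SMARTer v4 and Nextera XT libraries with STAR to GRCm38.p6 and counted fragments with featureCounts. The counts are raw, and the strand setting is not stated. The gene identifiers are those of a newer annotation than GENCODE M21, which gives a position for 52073 of the 56748 genes and for 14096 of the 14270 tested.

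Low genes were removed with filterByExpr (minimum count 10) in edgeR 4.0.16 (R 4.3.3). After TMM scaling, 5 KO and 5 control libraries were compared by the quasi-likelihood test, with p-values adjusted by Benjamini-Hochberg over all genes tested (limit 0.05). CPM are TMM-normalized, and a prior count of 2 was added for log2 CPM. Each standard error was obtained from the log2 fold change and the test's F. Permutation tests were exact and 2-sided over 252 assignments. Ratios of summed counts have exact binomial (Clopper-Pearson) intervals, which cover counting error only. Levels of different genes were compared per kilobase of merged exons, and transcripts by shared runs of 50 bases. The fits were tested on simulated data. Where a symbol occurs more than once in the table, lists used the lowest identifier.

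Named are the 8 genes, Fam20c, Adipoq, the 6 nearest tested neighbours (fewer than 6 neighbours passed the limit), from each list the genes past the limit (at most 5) or otherwise the 2 most abundant, and the 3 genes most correlated with each of the 8 that has a mean log2 CPM of at least 0. The few others were named after their values were seen. The 8 genes and the lists were chosen with earlier results of these data known. Alternatives were DESeq2 1.42.0, limma 3.58.1 voom with quality weights, other size factors, other filters, a replicate block, an endothelial covariate, libraries left out and, for levels, the longest transcript.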

Additional observations from a re-analysis of the deposited data

Results flagged for a closer look

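In 7 of 38 groups of 5 libraries, 1 library lay far from the other 4 by Dixon's criterion, which chance alone meets in about 5% of groups, or 1.9 of 38. Eif4a2 stood at 313.6 CPM in Control 4 against 224.2 to 239.1 CPM in the other control libraries. The other values belong to genes beyond the 8. Igf2bp2 stood at 48.1 CPM in Control 4 (others 26.5 to 31.3) and at 46.0 CPM in KO 1 (others 31.5 to 33.9). Dnajb11 stood at 154.4 CPM in Control 4 (others 208.4 to 219.1) and at 146.8 CPM in KO 1 (others 193.6 to 211.4). Tbccd1 was lowest in Control 4, at 21.9 CPM (others 26.4 to 27.6). Rtp4 was highest in Control 5, at 59.1 CPM (others 19.6 to 29.4). In 6 of the 7 groups the library was Control 4 or KO 1, the pair that stood apart on the first principal component.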

How the results depend on the processing

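Over 20 alternatives, Eif4a2 and Rfc4 were called in 19, the endothelial covariate being the exception, and Kng1 and Kng2 in 5: DESeq2, limma voom, no filter, without Control 4, and without Control 4 and KO 1. So 4 of the 8 genes were called in those settings, 0 with the covariate and 2 to 4 with 1 library left out. Because the 8 were picked with this contrast known, these counts show only how calls moved with the settings and lend the differences no support. Over all genes, 44 higher calls became 125 (DESeq2), 111 (limma voom), 145 (Control 4 and KO 1 out), 21 (replicate block), 0 (covariate) and 19 to 119 (1 library out, 119 without Control 4), and 265 lower calls became 0 (covariate) and 164 to 323 (1 library out). With the covariate, whose marker sums do not overlap between the groups, 1723 genes had an unadjusted p under 0.05. Its values on the log2 scale were -0.59 for Fam20c (adjusted p = 0.624, edgeR) and -0.07 for Adipoq (adjusted p = 0.917, edgeR). Of the 8 genes, Ahsg had 0.72, Fetub -0.94, Kng2 1.09, Eif4a2 1.47 and St6gal1 1.88. Kng1 had 1.04, Rfc4 0.71 and 6330408M09Rik 0.2, beside 0.99, 0.65 and 0.33 without the covariate. No filter gave 1 call among the other genes within 1 Mb, B630019A10Rik. With 1 library left out, Fam20c ranged from -0.54 to -0.43 and Adipoq from 0.03 to 0.07. By longest transcript, 4 of the 8 genes kept their rank of level. The replicate numbers of the labels did not pair the libraries: same-numbered deviations correlated between -0.251 and 0.263, and 1 of 5 KO libraries matched its own number best. With that block the log2 fold changes were 0.68 for Eif4a2, 0.65 for Rfc4, 1.02 for Kng1, 0.51 for Kng2 and -0.08 for St6gal1. Depth limits Ahsg, Fetub and 6330408M09Rik, with at most 42 counts per library.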
